A study of Mus musculus with 40 samples.

Results

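Interferon-stimulated genes are the genes that cells switch on when they sense interferon, and 9 of them are described here in mouse forebrain with an added copy of Chd8. The 9 were taken by symbol: the regulators Irf7, Irf9 and Stat2, and the effectors Ifit1, Ifit2, Ifit3, Isg15, Bst2 and Ifi27. They were looked up by NCBI gene ID among 17974 genes with a row in either of 2 deposited tables. At E18.5, 7 of the 9 had a row in the table of 15449 genes; Ifit1 and Ifit3 had none. At E14.5, 8 of the 9 had a row in the table of 17940 genes; Ifit1 again had none and was not analysed here.

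The study compared Chd8 KI with wild-type (WT) mice, and its title describes Chd8 duplication; CHD8 is a chromatin remodeler linked to autism. RNA sequencing of polyadenylated RNA covered 4 groups of male forebrain: KI at embryonic day E18.5, WT at E18.5, KI at E14.5 and WT at E14.5, with 5 libraries in each. No other treatment or allele is given in the labels, and the site and promoter of the added copy are not given in the sources used here. Nothing in the labels ties libraries to litters. The p-values set each log2 fold change against its standard error (SE), estimated from these libraries only. The tables hold the authors' DESeq2 comparison of KI with WT, not a value per library. The spread between single libraries is therefore not seen, and the SE is only an indirect guide to it. Mean normalized counts are the authors' means over both genotypes of a stage.

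Interferons bind receptors on the cell surface, whose JAK kinases phosphorylate STAT proteins, STAT2 among them. Phosphorylated STAT2 joins IRF9 in a complex called ISGF3, which binds a DNA element, the interferon-stimulated response element (ISRE), before its target genes. The targets include antiviral effectors and parts of the pathway itself, such as IRF7, which amplifies interferon production. In brain, microglia, endothelium and the meninges are known sources of this response, and neurons make it too when infected.

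Promoter sequence is shown first, because the ISRE is the feature by which these genes are commonly grouped. RefSeq promoter windows (assembly GRCm38.p6), 250 bases before to 50 after an annotated start, matched 8 of the 9 genes with 10 windows; Ifi27 had no window. Both strands were searched for a shorter ISRE spelling, GAAANNGAAA, and for a longer one, GAAANNGAAACT, which contains the shorter. The shorter letters were found in 3.44% of all 32851 windows and the longer in 0.271%. Counted by gene, that was 3.99% and 0.303% of 27025 genes with a window. Of the 8 genes, 5 held the shorter letters (Ifit1, Ifit3, Isg15, Bst2 and Stat2) and 3 of these the longer (Ifit1, Ifit3 and Bst2). The stretches that hold these matches are printed 5′ to 3′ along the gene's strand, with shorter matches in capitals, followed by 2 windows without a match. They are chr19:34640759-34640838 (plus strand) for Ifit1, chr19:34583355-34583434 (plus) for Ifit3, chr4:156200846-156200925 (minus) for Isg15, chr8:71537555-71537634 (minus) for Bst2 and chr10:128270248-128270327 (plus) for Stat2. Those without a match are the 100 bases before the first listed Ifit2 start, chr19:34550594-34550693 (plus), and before the Irf7 start, chr7:141266425-141266524 (minus).
Ifit1: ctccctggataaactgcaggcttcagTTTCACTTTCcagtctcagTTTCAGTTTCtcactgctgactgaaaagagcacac
Ifit3: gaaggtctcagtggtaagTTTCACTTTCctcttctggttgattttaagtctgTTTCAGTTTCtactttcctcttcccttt
Isg15: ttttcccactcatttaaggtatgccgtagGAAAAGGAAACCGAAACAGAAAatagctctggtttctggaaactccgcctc
Bst2: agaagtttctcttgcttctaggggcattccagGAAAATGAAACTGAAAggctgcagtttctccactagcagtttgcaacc
Stat2: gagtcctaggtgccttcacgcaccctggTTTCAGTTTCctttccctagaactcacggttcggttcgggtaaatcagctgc
Ifit2: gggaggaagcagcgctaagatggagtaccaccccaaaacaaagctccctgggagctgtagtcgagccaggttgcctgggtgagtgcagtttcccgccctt
Irf7: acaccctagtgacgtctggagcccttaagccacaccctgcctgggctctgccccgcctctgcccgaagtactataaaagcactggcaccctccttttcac

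Ifit1 held 2 separate copies of the shorter letters on the opposite strand, at −104 to −95 and −85 to −76 from the start, and each lay within a longer match. Ifit3 also held 2 on the opposite strand, of which the one at −156 to −147 lay within a longer match. In Isg15, 3 matches overlapped one another between −78 and −57, so the capitals run together. In Bst2, 2 matches overlapped between −130 and −115. Stat2 held 1 match, far from the start at −222 to −213. Neither window of Ifit2, neither window of Irf9 and not the window of Irf7 held the letters. That says only that these letters are not in these windows; Ifit2 spans 25985 bases, and its other parts were not searched.

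**Figure D1:**
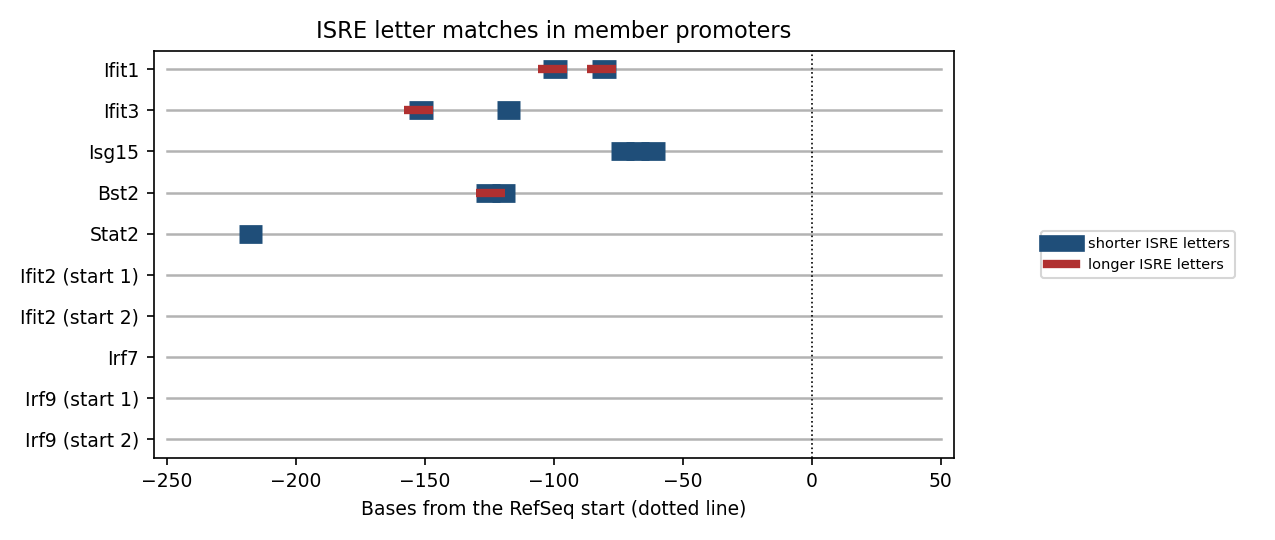
Positions of ISRE letters in the promoter windows of 8 interferon-stimulated genes, in bases from the RefSeq start (dotted line); thick blue bars are matches to the shorter letters and thin red bars to the longer. Matches lie between −222 and −57, and 5 of the 10 windows hold none.

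None of the 9 genes was called changed in KI at either stage by the authors' DESeq2 test (adjusted p under 0.05). At E18.5 that is 0 of 7 tested, where 0.0662% of all 13601 genes tested were called (0.0441% higher and 0.0221% lower in KI). At E14.5 it is 0 of 3 tested (Ifit2, Irf9 and Stat2), where 1.21% of 13417 were called (0.738% higher and 0.47% lower in KI). The other 5 genes with a row at E14.5 had no adjusted p, since their mean normalized counts lay under 25.2, the lowest count among genes tested. At an unadjusted p under 0.05, 2 of the 7 genes passed at E18.5 (Ifit2 and Isg15), and 2 of the 8 at E14.5 (Ifit2 and Bst2). In either direction 5.56% of all genes with a p-value did so at E18.5 and 9.59% at E14.5. The genes named all lay above 0, and the same threshold with a positive log2 fold change was met by 2.94% of all genes with a p-value at E18.5 and 5.32% at E14.5. Log2 fold changes were above 0 in 5 of 7 genes at E18.5, with a median of 0.24, and in 5 of 8 at E14.5, with a median of 0.19. At E18.5 this direction rested on the genes of low count. Counting only genes that averaged 100 or more normalized counts, only Ifit2, Irf9 and Stat2 were left, of which 1 of 3 lay above 0 at E18.5 (median −0.03) and 2 of 3 at E14.5 (median 0.09). Over all genes with a row, 49.3% at E18.5 and 50.6% at E14.5 lay above 0, and the medians were −0.00 and 0.00.

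**Figure D2:**
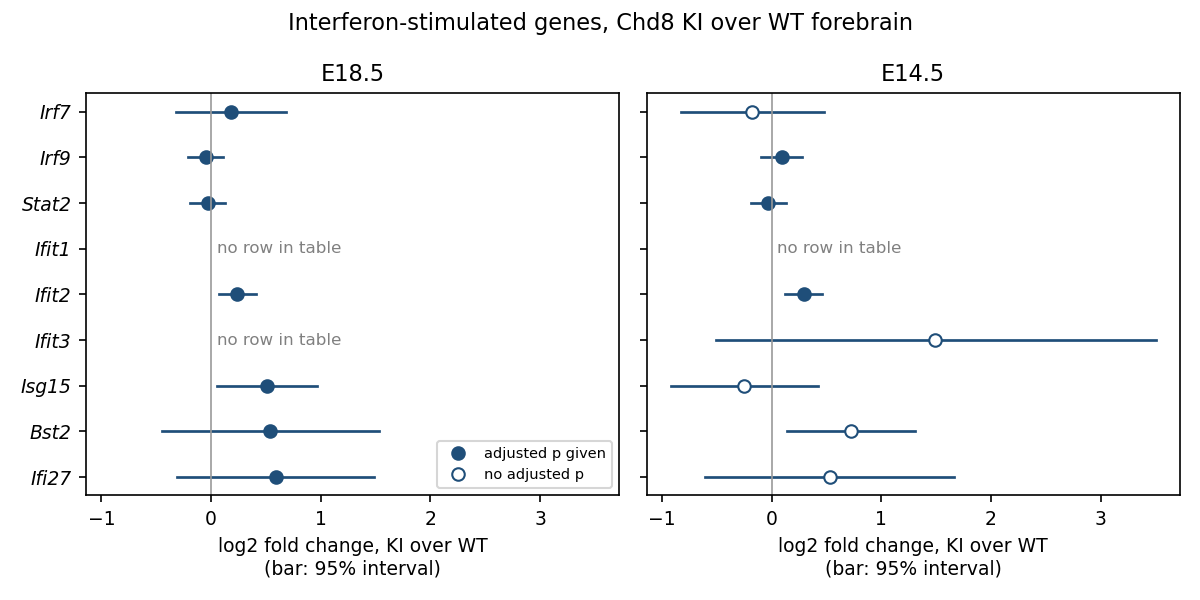
Log2 fold change, KI over WT, of the 9 interferon-stimulated genes at E18.5 (left) and E14.5 (right), with 95% intervals as bars; filled points have an adjusted p and open points have none. The intervals of Ifit2 lie above 0 at both stages, those of Stat2 and Irf9 are narrow and span 0, and Ifit1 has no row.

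Of the regulators, Stat2, the ISGF3 subunit that carries the transactivation domain, was the most narrowly estimated. At E18.5 the authors' deposited table gives it a mean normalized count of 824 and a log2 fold change of −0.03 (SE 0.081, adjusted p = 0.9999). At E14.5 the same values according to the authors' deposited table were 571 and −0.03 (SE 0.080, adjusted p = 0.943). The 95% interval ran from −0.19 to 0.13 at both stages. A log2 fold change of 0.34 at E18.5, or of 0.27 at E14.5, would have been needed at this SE to reach the weakest Wald statistic called.

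Irf9, which gives ISGF3 its DNA binding, lay on chromosome 14 at 55603985 to 55610030, 3.35 Mb from the end of Chd8 itself. Its log2 fold change according to the authors' deposited table was −0.05 at E18.5 (SE 0.082, adjusted p = 0.9999, mean normalized count 389). At E14.5 it was 0.09 (SE 0.098, adjusted p = 0.795, mean normalized count 329.6) according to the authors' deposited table. Intervals of −0.21 to 0.11 at E18.5 and −0.10 to 0.28 at E14.5 both spanned 0.

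Irf7, the regulator needed for strong interferon-alpha production, was listed at much lower counts. In the authors' deposited table it averaged 33.7 normalized counts at E18.5, just over the lowest count tested there (32.7), and 15.3 at E14.5. KI over WT, the log2 fold change was 0.18 (SE 0.256, 95% interval −0.32 to 0.68) at E18.5 and −0.18 (SE 0.332, 95% interval −0.83 to 0.48) at E14.5 according to the authors' deposited table. At E18.5 only a log2 fold change of 1.08 or more would have reached the weakest call.

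Of the effectors, Ifit2 had the largest Wald statistic of the 9 at both stages. IFIT proteins are tetratricopeptide-repeat proteins that bind viral RNA and hold back its translation. At E18.5 the authors' deposited table gives Ifit2 a mean normalized count of 339, about 368 in KI and 311 in WT. These group values follow from the mean, the fold change and equal group sizes. The log2 fold change was 0.24 (SE 0.086, 95% interval 0.07 to 0.41, p = 0.00486, adjusted p = 0.518) according to the authors' deposited table. At E14.5 the mean was 241, about 265 in KI and 217 in WT, and the log2 fold change 0.29 (SE 0.087, 95% interval 0.12 to 0.46, p = 0.000995, adjusted p = 0.0656) according to the authors' deposited table. That is 22% above WT, and the Wald statistic of 3.29 stood beside a weakest called value of 3.43. Ifit2 therefore missed the threshold at both stages, and its 2 estimates rest on separate sets of libraries.

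The other IFIT genes lie next to it on chromosome 19. Ifit2 is at 34550550 to 34576534, Ifit3 at 34583119 to 34588982 and Ifit1 at 34640889 to 34650009 (GRCm38.p6). Ifit3, which binds IFIT1 and steadies it in human cells, averaged 2.60 normalized counts at E14.5 and a log2 fold change of 1.49 (SE 1.02, 95% interval −0.51 to 3.50) according to the authors' deposited table. It had no row at E18.5, where the lowest mean normalized count listed for any gene was 9.70. Ifit1, which recognises RNA caps of viral type, had no row at either stage. All 9121 bases of its span lie within that of Ifit1bl1, a related gene at 34592888 to 34662981. Only whole spans were compared, and whether the overlap affected the counting of Ifit1 reads was not tested. Ifit1bl1 did have rows, with log2 fold changes of −0.10 (SE 0.345) at E18.5 and −1.28 (SE 0.635) at E14.5 and mean normalized counts of 18.3 and 5.50 according to the authors' deposited table. Neither had an adjusted p. Ifit3 and Ifit3b are close copies, Ifit3b had no row, and how reads were divided between them was not tested.

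Isg15 encodes a ubiquitin-like protein that is joined to other proteins during the interferon response. At E18.5 the authors' deposited table gives it a mean normalized count of 38.5, about 45.2 in KI and 31.7 in WT. KI over WT, the log2 fold change was 0.51 (SE 0.236, 95% interval 0.05 to 0.97, p = 0.0304, adjusted p = 0.805) according to the authors' deposited table. At E14.5 the mean normalized count was 17.1 and the log2 fold change −0.25 (SE 0.341, 95% interval −0.92 to 0.42, p = 0.469) according to the authors' deposited table. The sign thus differed between stages, with neither value called.

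Bst2 encodes tetherin, which holds budding enveloped viruses on the cell surface. At E18.5 it averaged 45.1 normalized counts, about 53.5 in KI and 36.7 in WT, and a log2 fold change of 0.54 (SE 0.504, 95% interval −0.45 to 1.53, adjusted p = 0.9999) according to the authors' deposited table. At E14.5 the mean was 19.8, about 24.6 in KI and 14.9 in WT, and the log2 fold change 0.72 (SE 0.299, 95% interval 0.14 to 1.31, p = 0.0159) according to the authors' deposited table. The smaller count went with the smaller SE.

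Ifi27, a small hydrophobic membrane protein strongly induced by interferon, averaged 54.4 normalized counts at E18.5, about 65.5 in KI and 43.4 in WT, according to the authors' deposited table. KI over WT, the log2 fold change was 0.59 (SE 0.459, 95% interval −0.31 to 1.49, adjusted p = 0.9999) according to the authors' deposited table. At E14.5 it was near the bottom of the table, at a mean of 5.99 and a log2 fold change of 0.53 (SE 0.578, 95% interval −0.61 to 1.66). Among the 15415 genes with a row at both stages, its level stood at percentile 16.7 at E18.5 and 2.56 at E14.5, with the tables normalized separately. Its span on chromosome 12, 103434189 to 103440245, lies wholly within that of Ifi27l2a, which had no row. Whether that overlap affected the count of Ifi27 was not tested.

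Levels of the other genes with a row at both stages also stood at a higher percentile at E18.5 than at E14.5. The lowest mean normalized count listed was 9.70 at E18.5 and 0.987 at E14.5. A gene listed only at E14.5, such as Ifit3, was left out of this ranking. For genes of low count, the higher rank at E18.5 may therefore come partly from which genes were ranked. Isg15 was at 13.2 and 9.51, Irf7 at 11.7 and 8.43, and Bst2 at 14.8 and 10.8. Ifit2 was at 41.3 and 37, Irf9 at 44.1 and 42.5, and Stat2 at 62.2 and 54.6. In bulk tissue, fewer cells of a type and less RNA per cell cannot be told apart, and no test was made of these levels because the 2 tables were normalized separately.

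No difference between stages in the response to KI passed the test for any of the 9 genes. Subtracting the E14.5 log2 fold change from the E18.5 one gave −0.04 for Ifit2 (95% interval −0.28 to 0.20), −0.14 for Irf9 (−0.39 to 0.11) and −0.00 for Stat2 (−0.22 to 0.22). By a normal test on the deposited estimates and their SEs, adjusted over 13106 genes tested at both stages, the adjusted p was 0.999 for Ifit2 and Irf9. Isg15 had the widest gap, 0.76 (SE 0.415, 95% interval −0.06 to 1.57), but lay outside the genes tested at both stages. Adjusted over every gene with a p-value at both stages, a choice made after seeing the data, its adjusted p was 0.999. Of all 13106 genes, 0% passed this test, and 4.29% of genes with a p-value at both stages were at an unadjusted p under 0.05; none of the 7 genes was.

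The SE separated the 7 genes with a row at E18.5 into narrow and wide ones. Each gene's SE was divided by the median SE of the 500 genes nearest to it in mean normalized count. At E14.5 all 8 genes lay between 0.89 and 1.18. At E18.5, Ifit2, Isg15, Irf7 and Irf9 lay between 0.95 and 0.97 and Stat2 at 1.31, while Bst2 stood at 2.17 and Ifi27 at 2.13. A ratio of at least 2 was met by 2.34% of all genes with a row at E18.5 and by 0.92% at E14.5. Among the other interferon-related lists at E18.5, 1 of 35 effectors and 1 of 9 antigen presentation genes reached it. None did of 11 receptor and JAK-STAT genes, 12 sensors, 7 regulatory factors, 4 ISG15 conjugation genes and 6 feedback inhibitors. The effector, Ifitm3, a membrane protein that blocks virus entry, had a ratio of 2.71 at E18.5 and 1.04 at E14.5. The other gene, B2m, the light chain of class I histocompatibility proteins, had a ratio of 2.89 at E18.5 and 1.12 at E14.5.

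Wide SEs at E18.5 were also met in several marker lists, most often in that of the meninges and fibroblasts. At E18.5, 9 of their 10 listed genes had a ratio of at least 2, with a median ratio of 9.41, and 8 of the 10 had no p-value. At E14.5 none of the 9 with a row reached 2, and their median ratio was 1.01. The summed mean normalized count of the list was 4630.0 at E18.5 and 1243 at E14.5 according to the authors' deposited tables, and Lum alone had no row at E14.5. Of these sums Pdgfra made up 1256 at E18.5 and 199.9 at E14.5, and the 2 stages were normalized separately. At E18.5, 4 of 14 microglia and macrophage markers also reached 2 (C1qa, Mrc1, Pf4 and Lyve1), and none did at E14.5. Of these, the border macrophage markers Mrc1, Pf4 and Lyve1 had ratios of 7.68, 4.32 and 6.96 at E18.5 and between 0.91 and 0.98 at E14.5. Among other lists, 2 of 4 erythroid markers reached 2 at E18.5 (Hba-a1 at 5.68 and Hba-a2 at 3.34), as did 2 of 9 at E14.5. Of 11 endothelium and pericyte markers Cdh5 did at E18.5 (2.92), and of 14 forebrain markers Eomes did (2.32). DESeq2 leaves out the p-value of a gene with an extreme count in a library, although the table does not record why one is missing. The part of any of these cells in the spread of Bst2 and Ifi27 was not tested.

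**Figure D3:**
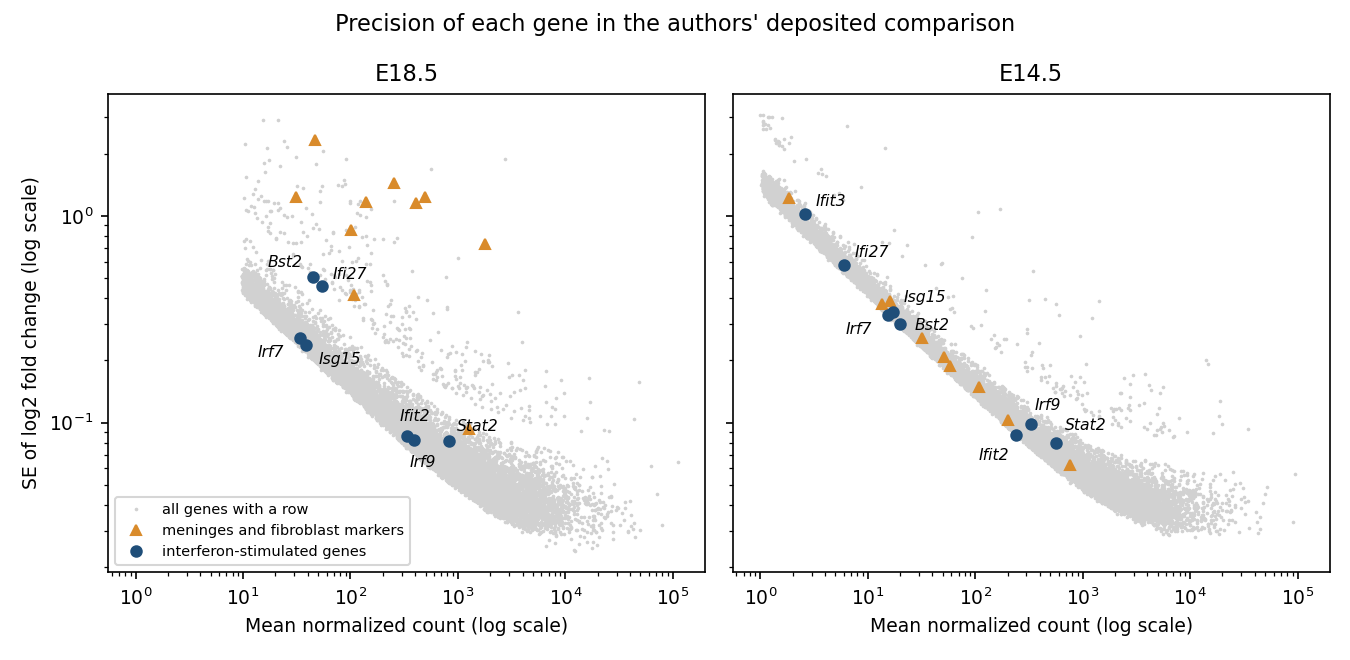
SE of the log2 fold change against mean normalized count, both on log scales, at E18.5 (left) and E14.5 (right); grey points are all genes with a row, blue circles the interferon-stimulated genes and orange triangles markers of meninges and fibroblasts. At E18.5 Bst2 and Ifi27 leave the band of other genes, as do 9 of the 10 markers; at E14.5 none does.

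Genes upstream of the 9 were taken next. For this and every later list, the share called over all genes tested was 0.0662% at E18.5 and 1.21% at E14.5. None of the 11 interferon genes listed, among them Ifnb1, Ifna4 and Ifng, had a row at either stage, so ligands were not analysed here. All 11 receptor, JAK and STAT genes had rows at both stages, and 0 of the 10 tested was called at either. The subunits of the type I receptor were narrowly estimated. Ifnar1 was at −0.01 (SE 0.038) at E18.5 and −0.05 (SE 0.038) at E14.5, and Ifnar2 at −0.03 (SE 0.068) and −0.04 (SE 0.071), according to the authors' deposited table. The kinases with the largest Wald statistics were Jak2, at −0.07 (SE 0.058) at E18.5 and −0.14 (SE 0.049, adjusted p = 0.141) at E14.5, and Tyk2, at −0.14 (SE 0.090) and −0.13 (SE 0.071), according to the authors' deposited table. Il10rb, a subunit shared by receptors for IL-10 and interferon-lambda, was at 0.34 (SE 0.221, adjusted p = 0.992) at E18.5 and 0.04 (SE 0.219) at E14.5 according to the authors' deposited table.

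Among sensors of foreign nucleic acid, 0 of 10 tested genes was called at E18.5 (4 above 0, median −0.01) and 0 of 7 at E14.5 (4 above 0, median 0.04). The DNA sensor Cgas was at 0.14 (SE 0.284) at E18.5 and 0.52 (SE 0.278, adjusted p = 0.464) at E14.5 according to the authors' deposited table. Ticam1, the adaptor of TLR3, was at −0.01 (SE 0.168) and −0.25 (SE 0.161) at the same stages according to the authors' deposited table. Ikbke, a kinase that activates IRF3, and Dhx58, a helicase related to RIG-I, were at −0.33 (SE 0.264) and −0.26 (SE 0.285) at E18.5 according to the authors' deposited table. Other interferon regulatory factors had 0 called of 5 tested at E18.5 and of 6 at E14.5. Irf8, a factor of macrophages and microglia, was at 0.46 (SE 0.262, adjusted p = 0.938) at E18.5 and −0.30 (SE 0.285, adjusted p = 0.76) at E14.5 according to the authors' deposited table. The corepressor Irf2bp1 was at 0.05 (SE 0.045) and 0.04 (SE 0.043).

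A longer list of 50 other interferon-stimulated effectors had no gene called either, at 0 of 25 tested at E18.5 and 0 of 16 at E14.5. Its values lay mostly above 0: 20 of 25 at E18.5, with a median of 0.09, and 14 of 16 at E14.5, with a median of 0.19. Counting only genes that averaged 100 or more normalized counts, 7 of 11 lay above 0 at E18.5 (median 0.02) and 8 of 10 at E14.5 (median 0.11). Of all genes tested, 48.8% lay above 0 at E18.5 and 49.8% at E14.5, and both medians were −0.00. Ifitm2, a relative of Ifitm3, came nearest to a call, at 0.38 (SE 0.093, 95% interval 0.19 to 0.56, adjusted p = 0.052) at E18.5 and 0.25 (SE 0.098, adjusted p = 0.204) at E14.5 according to the authors' deposited table. Dtx3l, a ubiquitin ligase that works with PARP9, was at 0.10 (SE 0.198) at E18.5 and 0.35 (SE 0.128, adjusted p = 0.164) at E14.5 according to the authors' deposited table. Eif2ak2, the RNA-activated kinase PKR, was at 0.09 (SE 0.170) and 0.32 (SE 0.122, adjusted p = 0.196), and Rtp4, a receptor chaperone induced by interferon, at 0.56 (SE 0.299, adjusted p = 0.895) and 0.32 (SE 0.300), according to the authors' deposited table.

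Of the enzymes that join ISG15 to its targets, 0 of 2 tested was called at each stage. Uba7, another of these enzymes, and Usp18, the protease that removes ISG15, had rows but no adjusted p at either stage. Herc6, the ligase, was at −0.21 (SE 0.231) at E18.5 and 0.22 (SE 0.178) at E14.5, and Ube2l6, the conjugating enzyme, at 0.04 (SE 0.161) and 0.16 (SE 0.129), according to the authors' deposited table. Feedback inhibitors had 0 of 4 called at each stage. Pias1, an inhibitor of STAT signalling, was at −0.07 (SE 0.061) at E18.5 and −0.05 (SE 0.054) at E14.5 according to the authors' deposited table. The phosphatase genes Ptpn2 and Ptpn6 were at 0.07 (SE 0.056) and −0.27 (SE 0.323) at E18.5 and at 0.03 (SE 0.055) and 0.31 (SE 0.257) at E14.5 according to the authors' deposited table.

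Antigen presentation was the interferon-related list with called genes, 2 of 7 tested at E14.5 and 0 of 7 at E18.5. H2-K1, a class I heavy chain, rose at E14.5 (0.79, SE 0.146, adjusted p = 4.8e-05) and was at 0.57 (SE 0.189, adjusted p = 0.409) at E18.5 according to the authors' deposited table. H2-D1 rose at E14.5 (0.39, SE 0.094, adjusted p = 0.00678) and was at 0.24 (SE 0.082, adjusted p = 0.468) at E18.5 according to the authors' deposited table. Class I genes have near-identical copies, and how reads were divided between them was not tested. These genes respond to interferon but are not among the 9, none of which was called at E14.5.

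**Figure D4:**
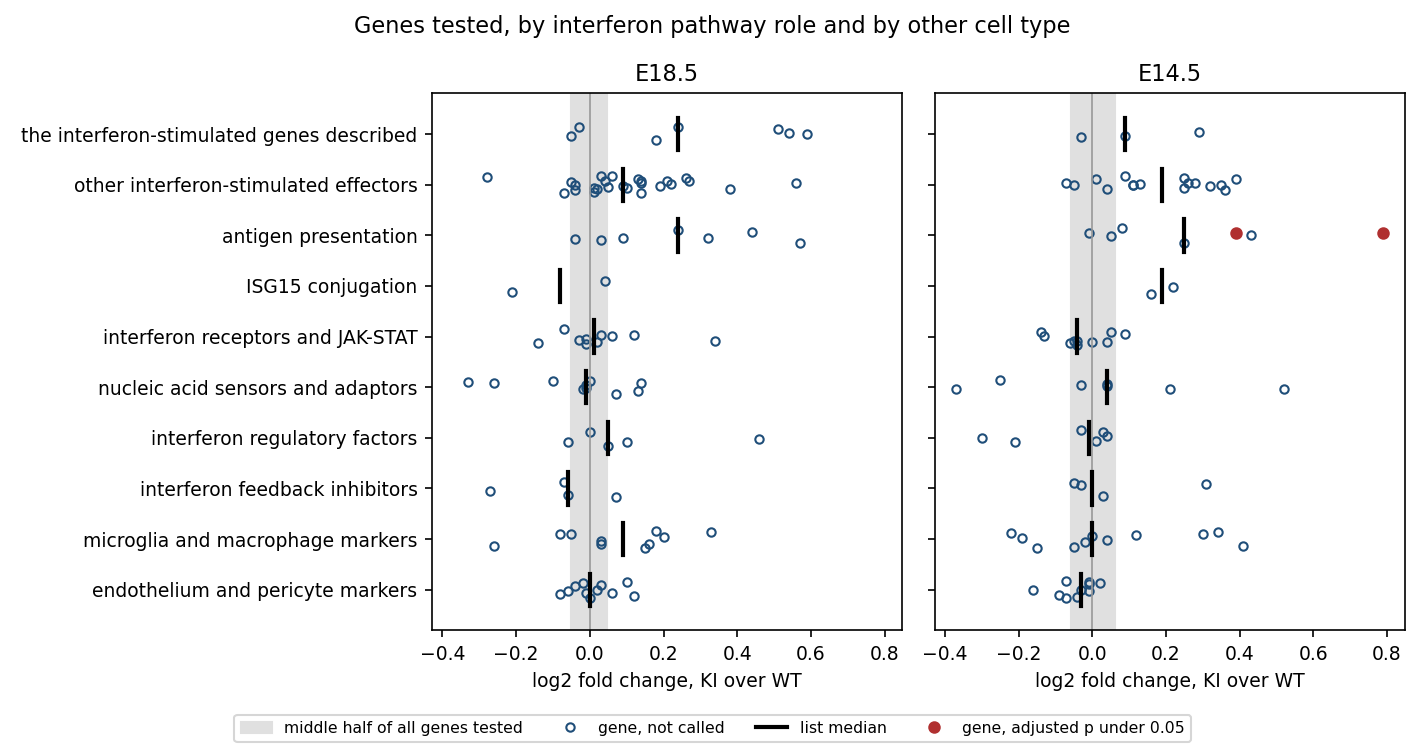
Log2 fold change, KI over WT, of the genes tested in each interferon-related list at E18.5 (left) and E14.5 (right). Markers of microglia and macrophages and of endothelium and pericytes are shown beside them. Meninges, lymphocyte, erythroid and forebrain markers are not shown, and the last 2 of these lists also had genes called at E14.5. Black bars are list medians, grey bands the interquartile range of all genes tested, and red points genes with an adjusted p under 0.05. The red points are H2-K1 and H2-D1 at E14.5, and receptor and JAK-STAT genes sit mostly within the grey band.

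Markers of cells that can carry an interferon response were set beside these values. Of 14 microglia and macrophage markers, 0 of 10 tested was called at E18.5 (7 above 0, median 0.09) and 0 of 11 at E14.5 (6 above 0, median 0.00). Csf1r and Tyrobp were at 0.15 (SE 0.142) and 0.33 (SE 0.291) at E18.5, and Cx3cr1 and C1qa at −0.22 (SE 0.122) and 0.30 (SE 0.166) at E14.5, according to the authors' deposited table. The summed mean normalized count of this list was 1713 at E18.5 and 1118 at E14.5, with the stages normalized separately. Endothelium and pericyte markers had 0 of 11 called at E18.5 (median 0.00) and 0 of 10 at E14.5 (median −0.03), with Flt1 at 0.12 (SE 0.079) and Rgs5 at 0.10 (SE 0.113) at E18.5, and Cdh5 at −0.16 (SE 0.105) and Pdgfrb at −0.07 (SE 0.082) at E14.5 according to the authors' deposited table. Meninges and fibroblast markers had 0 of 2 called at E18.5 and 0 of 6 at E14.5, where the median was 0.20 and Col1a2 was at 0.61 (SE 0.207, adjusted p = 0.118) according to the authors' deposited table. Pdgfra was at −0.20 (SE 0.093, adjusted p = 0.805) at E18.5 and −0.23 (SE 0.103, adjusted p = 0.334) at E14.5, and Foxc1 at −0.09 (SE 0.414) at E18.5, according to the authors' deposited table. Erythroid genes had 2 of 6 tested called at E14.5, where 6 of 6 lay above 0 and the median was 0.52. Of these, Hbb-y rose by 0.50 (SE 0.068, adjusted p = 1.64e-09) and Hba-x by 0.59 (SE 0.149, adjusted p = 0.0118) according to the authors' deposited table. At E18.5 none of 3 tested erythroid genes was called, with Hba-a1 at 0.28 (SE 0.362) and Alas2 at 0.10 (SE 0.209) according to the authors' deposited table. Of 8 lymphocyte markers, only Ptprc had a row at E18.5, at a mean normalized count of 26.6. At E14.5 only Ptprc (19.9) and Cd4 (1.78) had one. None of these values had an adjusted p, and Cd3e and Cd8a had no row at either stage. The part of these cells in the values of the 9 genes was not tested.

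Genes tied to the tissue and genotype labels are given here. All 14 forebrain neuron and progenitor markers had a row at both stages. At E18.5 none was called, with Gad1 at 0.15 (SE 0.066, adjusted p = 0.77) and Gad2 at 0.12 (SE 0.051, adjusted p = 0.743) according to the authors' deposited table. Neurod6 fell at E14.5 (−0.20, SE 0.046, adjusted p = 0.00438) and Dlx1 rose (0.17, SE 0.047, adjusted p = 0.0369) according to the authors' deposited table. Chd8 was at 0.51 (SE 0.038) at E18.5 and 0.64 (SE 0.031) at E14.5 according to the authors' deposited table. The header does not name the numerator, and positive was read as higher in KI because the study added a copy of Chd8. The sign of Chd8 thus sets the direction and is no check of it.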

How the data were processed

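RNA-seq libraries (5 per genotype and stage) entered the authors' comparison of KI with WT at each stage. The authors' tools, per the submitters' processing notes and in no stated order, were among others DESeq2 1.26.0, featureCounts 2.0.0, HISAT2 2.1.0 and Trimmomatic 0.39, and the build was mm10; whether counting used strand is not given in the sources used here. Per the file headers, each deposited table gives per gene a mean normalized count (a signal), a log2 fold change, its SE, the Wald score, its p-value and that p-value after adjustment. The deposited Wald score matched the ratio of log2 fold change to SE, and the adjustment matched Benjamini-Hochberg. The plan allowed for counts per library; 0 columns of per-sample values are in the tables, so depth per library is unknown.

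Symbols and positions came from RefSeq (GRCm38.p6), matching 15064 of 15449 IDs at E18.5 and 17192 of 17940 at E14.5. Implied group counts assume an unshrunken fold change. Intervals are 1.96 SEs either side. The stage difference is the difference of log2 fold changes over the root of their summed squared SEs, computed with scipy 1.17.1 and tested on simulated data. The 9 genes and the lists were chosen with earlier results of these data known. Genes named are the 9, every called gene of a list, and the 2 genes per list and stage with the largest absolute Wald statistic. Chd8 was named because it set the direction of the fold changes. Ifitm3, B2m, Mrc1, Pf4, Lyve1, Hba-a2, Eomes, Lum, Ifit1bl1, Ifit3b, Ifi27l2a, Ifnar1, Ifnar2, Uba7, Usp18 and the ligands and lymphocyte markers named were added after their values were seen. Alternatives were other sets of genes for the adjustment, an empirical null, the Benjamini-Yekutieli adjustment, centring and a minimum mean count of 100. CHD8 ChIP-seq and ATAC-seq libraries were not analysed here.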

Additional observations from a re-analysis of the deposited data

How the results depend on the processing

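The count of the 9 genes called stayed at 0 at both stages under all 4 alternatives run: adjustment over every gene with a p-value, a mean normalized count of at least 100, the empirical null and the Benjamini-Yekutieli adjustment. At E14.5 the adjusted p of Ifit2 ranged from 0.0594 (count of at least 100) to 0.661 (Benjamini-Yekutieli) over these, and at E18.5 from 0.304 (empirical null) upwards. Part of this outcome was fixed beforehand. The Benjamini-Yekutieli adjustment can only raise an adjusted p, and at E14.5 the empirical null had a scale of 1.22, which made a call harder. Outside the adjustment over every gene with a p-value, only Ifit2, Irf9 and Stat2 had a value at E14.5. Over all genes, 162 were called at E14.5, against 31 with the empirical null and 56 with Benjamini-Yekutieli. At E18.5, 9 were called, against 19 with the empirical null, 14 at a count of at least 100 and 4 with Benjamini-Yekutieli. Centring on the median of all genes turned the sign of 1 value, the stage difference of Stat2, to 0.00 from −0.00. The other 89 alternatives did not differ in direction or side of the threshold, but many of them could not. A new adjustment leaves a log2 fold change as it was, and a list without rows has no gene to call. No paired analysis was possible because the tables hold no value per library, which also ended the plan to leave out replicates. Counting only genes that averaged 100 or more normalized counts, the median at E18.5 was −0.03 over 3 of the 9, against 0.24 over the 7 with a row.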

Other observations

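Genes with the shorter ISRE letters in a promoter window were followed through both tables, as a description. Of 1079 such genes, 350 were tested at E18.5, of which 51.7% lay above 0 and 0 were called. Among all 10600 tested genes with a window, 48.3% lay above 0, and 4 were called higher and 3 lower. At E14.5, 335 were tested, 51.3% lay above 0, and 4 were called higher and 3 lower in KI; among all tested genes with a window, 49.6% lay above 0, and 81 were called higher and 49 lower of 10444. With the longer letters, 25 genes were tested at E18.5 and 19 at E14.5, with medians of −0.01 and 0.00 and 0 called at either stage by the authors' DESeq2 test.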
